A study of Mus musculus with 18 samples.

Results

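Wfdc2, Cpe, Hddc3, Maml2 and Gimap6 are 5 of the 53342 genes counted in Thy1+ cells from the hearts of 3 mouse strains. They were chosen by differences between the strains in the counts of the sham libraries, so their sham values are a description and carry no test. The question put to the data here was whether each difference was seen in all 6 libraries of a strain and under isoproterenol. All 5 passed the filter on low counts and were among the 15050 genes tested in the isoproterenol libraries. The lowest count of any of them in any library was 23.

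Thy1 is a membrane glycoprotein by which fibroblasts of the heart can be sorted, and GEO's labels call the sorted cells Thy1+ HE in one field and Thy1+HE- in another, with HE not explained. The mice were of the inbred strains KK/HlJ, C3H/HeJ and C57BL/6, with no allele or transgene named. In each strain 1 group received isoproterenol (ISO, which stimulates beta-adrenergic receptors and injures the heart at length) from implanted pumps and was sampled at day 14, a second ISO group was sampled at day 21, and a sham group received saline and carries no day in its labels. This gave 9 groups with 2 RNA-seq libraries each. The labels give no age, sex or dose and do not tell if the 2 libraries of a group were made from different animals. The spread on which the p-values rest is that between libraries, and part of it may be technical.

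The 5 genes encode proteins of different families. Wfdc2 is a secreted protein with WAP four-disulfide core domains, a fold found in protease inhibitors, and in humans it is measured in serum as HE4. Cpe, carboxypeptidase E, trims basic residues from the ends of peptide hormone precursors in secretory granules. Hddc3, also called Mesh1, is a hydrolase of the HD domain family that acts on the bacterial alarmone ppGpp in vitro and, in human cells, on NADPH. Maml2 is a mastermind-like coactivator that joins the Notch intracellular domain and the DNA-binding protein RBPJ. Gimap6 is a GTPase of the GIMAP family, which is known mainly from lymphocytes and is also expressed in endothelial cells.

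The genes lie on 5 different chromosomes of mm10, with coordinates from the GENCODE M21 annotation. Wfdc2 (ENSMUSG00000017723) spans chr2:164562413-164568510 on the plus strand. Cpe (ENSMUSG00000037852) spans chr8:64592542-64693054 on the minus strand. Hddc3 (ENSMUSG00000030532) spans chr7:80343104-80350547 on the plus strand. Its exons share 427 of 3775 bases, or 11.3%, with exons of Man2a2 on the opposite strand. Maml2 (ENSMUSG00000031925) spans chr9:13297957-13709388 on the plus strand, and the 5 annotated genes inside it were at a median count of 0. Gimap6 (ENSMUSG00000047867) spans chr6:48701582-48708225 on the minus strand, in the cluster of Gimap genes.

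Start regions are shown for genes with 1 strain whose 6 libraries stood apart from those of both others. Cpe met this rule but had no entry among the annotated promoter windows, so the regions shown are those of Wfdc2, Hddc3 and Gimap6. They are RefSeq reference sequence of build GRCm38.p6, the same mouse genome as mm10, which derives from C57BL/6. Each runs from 250 bases before to 50 bases after the start annotated in RefSeq, in the direction of the gene. That start can differ from the GENCODE one. The Wfdc2 window lies wholly inside the GENCODE span of the gene, which begins at 164562413. The sequences of KK/HlJ and C3H/HeJ were not analysed here. Capitals mark matches on either strand to 5 motifs. The TATA box was searched as TATAAA. The pentamer of the CCAAT box was searched as its name spells it. The GC box, bound by Sp family factors, was searched as GGGCGG. The E-box was searched as CACGTG. The core bound by RBPJ was searched as TGGGAA. In the Gimap6 window the letters of 1 motif do not overlap those of another, and the same holds for Wfdc2.
Wfdc2, chr2:164562465-164562764, plus strand: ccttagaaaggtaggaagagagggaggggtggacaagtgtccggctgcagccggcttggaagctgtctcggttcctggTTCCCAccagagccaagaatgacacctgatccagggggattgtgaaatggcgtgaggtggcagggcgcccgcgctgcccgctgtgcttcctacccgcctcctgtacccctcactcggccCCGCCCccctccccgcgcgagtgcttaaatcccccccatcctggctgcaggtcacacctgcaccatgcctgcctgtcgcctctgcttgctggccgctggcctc
Hddc3, chr7:80342887-80343186, plus strand: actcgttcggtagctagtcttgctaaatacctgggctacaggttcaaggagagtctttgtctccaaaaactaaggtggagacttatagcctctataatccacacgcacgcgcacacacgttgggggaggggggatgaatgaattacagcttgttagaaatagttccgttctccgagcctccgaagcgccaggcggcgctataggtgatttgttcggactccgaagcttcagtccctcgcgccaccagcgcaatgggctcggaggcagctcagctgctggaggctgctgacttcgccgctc
Gimap6, chr6:48708195-48708494, minus strand: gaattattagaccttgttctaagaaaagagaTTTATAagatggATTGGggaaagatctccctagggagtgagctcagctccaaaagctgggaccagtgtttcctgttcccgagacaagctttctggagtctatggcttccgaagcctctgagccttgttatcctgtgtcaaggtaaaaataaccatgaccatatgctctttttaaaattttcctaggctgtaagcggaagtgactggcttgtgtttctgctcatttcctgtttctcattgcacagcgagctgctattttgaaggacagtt
The Wfdc2 window held 1 GC box and 1 RBPJ core, which 35.7% and 25.6% of 32851 annotated mouse promoter windows of this length hold. The Gimap6 window held 1 TATA box letter match and 1 CCAAT, each on the strand opposite to the gene, against 13.6% and 37.4% of all windows. The Hddc3 window held none of the 5 motifs, and the E-box was in none of the 3 windows, against 7.15% of all. GC content was 65.3% for Wfdc2, 55% for Hddc3 and 43.3% for Gimap6.

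Levels are given as CPM, a gene's read count scaled to a common library size with edgeR's TMM factors. Totals ran from 7230741 to 26280685 counts per library. Fibroblast genes were high everywhere, with Pdgfra at 246.5 to 1034 CPM, Tcf21 at 258.4 to 504.4 CPM and Thy1 at 134.9 to 481.4 CPM. Markers of other cells were also read. The 12 pericyte and smooth muscle markers summed to 1545 to 7258 CPM and the 12 epicardial and mesothelial ones to 305.9 to 697.9 CPM. Cardiomyocyte markers summed to 62.38 to 405.7 CPM, and Schwann and glia markers to 64.39 to 190.4 CPM. KK/HlJ ISO day 14 replicate 1 correlated least with the other libraries (median r = 0.811 over genes). Next came C3H/HeJ sham replicate 1 at 0.84, KK/HlJ sham replicate 1 at 0.845 and KK/HlJ ISO day 21 replicate 1 at 0.847. The tests used ISO libraries alone, so some differences of Wfdc2, Cpe, Hddc3 and Gimap6 are also given without the 2 KK/HlJ ISO libraries among these. That fit leaves 1 library in each KK/HlJ ISO group, so KK/HlJ adds nothing to its estimate of the spread. Leaving out any 1 ISO library likewise leaves its group with 1. A call gained in such a fit is not read as stronger evidence. Fewer cells of a type and less RNA per cell cannot be told apart in such bulk libraries.

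For 4 of the 5 genes the difference of 1 strain from both others was seen in every library. All 6 libraries of 1 strain lay above, or all 6 below, the 12 libraries of both other strains for Wfdc2, Cpe, Hddc3 and Gimap6. Of all 15762 genes tested over 18 libraries, 0.869% separated 1 strain in this way. The sham libraries that chose the genes are part of that count, so the ISO libraries were also taken alone. There, the 4 libraries of 1 strain again stood apart from the 8 of both others for Wfdc2, Cpe, Hddc3 and Gimap6, against 3.5% of the 15050 genes tested. The strain that stood apart was KK/HlJ for Wfdc2, C57BL/6 for Cpe and Hddc3, and C3H/HeJ for Gimap6. Between the remaining strains, Wfdc2, Cpe and Gimap6 were apart in the sham libraries and overlapped under ISO. The sign of that difference turned for Wfdc2 and Gimap6. Maml2 separated no strain from both others in either set. The same 4 genes separated the same strain when CPM were scaled by total counts or by RLE factors.

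**Figure D1:**
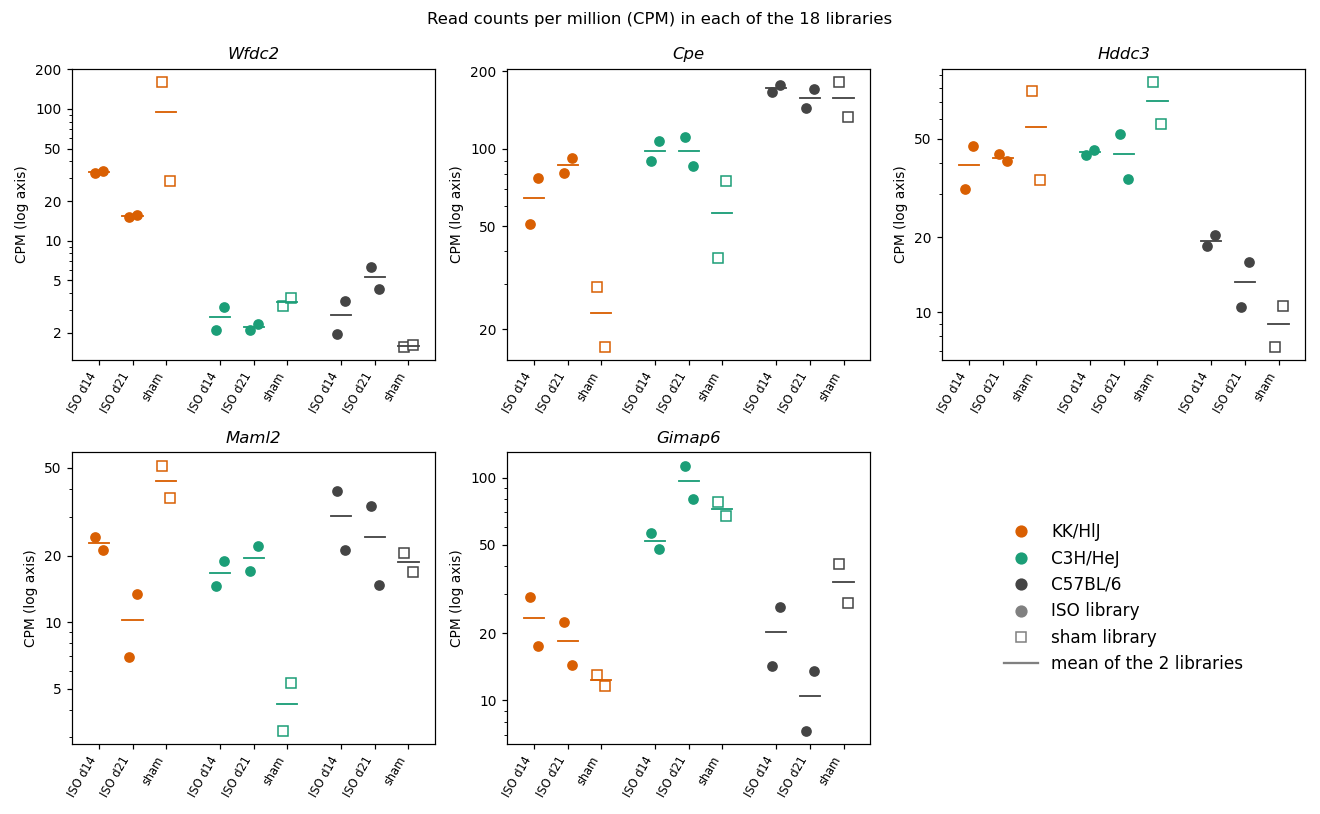
CPM on a log axis in each library of the 5 genes, with filled circles for ISO libraries, open squares for sham libraries and a bar for the mean of each group of 2. Wfdc2 is high in KK/HlJ, Cpe is high and Hddc3 low in C57BL/6, and Gimap6 is high in C3H/HeJ in every library, while the strains overlap for Maml2 under ISO.

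Wfdc2 was highest in KK/HlJ. In KK/HlJ it was at 32.7 and 33.8 CPM at ISO day 14, 15.2 and 15.7 CPM at ISO day 21, and 161 and 28.5 CPM in sham. In C3H/HeJ it was at 2.12 and 3.16 CPM at ISO day 14, 2.10 and 2.32 CPM at ISO day 21, and 3.22 and 3.66 CPM in sham. In C57BL/6 it was at 1.95 and 3.47 CPM at ISO day 14, 6.26 and 4.3 CPM at ISO day 21, and 1.57 and 1.61 CPM in sham. The lowest KK/HlJ library, at 15.2 CPM, was above the highest of the other 12, at 6.26 CPM. The 2 KK/HlJ sham libraries differed most from each other, and their mean of 94.6 ± 93.5 CPM (SD, n = 2) rests on replicate 1.

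Ordered by group mean, the 3 KK/HlJ groups came first, with sham above day 14 and day 14 above day 21. The sham and day 14 groups of KK/HlJ overlapped, and the day 21 group lay below both. The 6 groups of the other strains ran between 5.28 ± 1.39 CPM in C57BL/6 ISO day 21 and 1.59 ± 0.0272 CPM in C57BL/6 sham (SD, n = 2 each). Between these extremes lay C3H/HeJ sham, C57BL/6 day 14, C3H/HeJ day 14 and C3H/HeJ day 21, each of which overlapped the next of them in this order.

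Averaged over both days, KK/HlJ ISO libraries had 24.3 ± 10.3 CPM of Wfdc2 (SD, n = 4), against 3.99 ± 1.80 CPM in C57BL/6 ISO libraries (SD, n = 4). The log2 fold change was 2.57 (SE 0.691, 95% interval 1.11 to 4.02), a 5.92-fold difference that did not pass edgeR's quasi-likelihood test (adjusted p = 0.239 over all genes). Against C3H/HeJ, at 2.42 ± 0.504 CPM (SD, n = 4), the KK/HlJ difference was 3.21 (SE 0.711, 95% interval 1.72 to 4.71, edgeR adjusted p = 0.0855), or 9.26-fold. That difference ranked 47th of 15050 genes by its edgeR p. DESeq2 called both differences, with adjusted p = 0.0011 against C57BL/6 and 2.74e-06 against C3H/HeJ. Without the 2 KK/HlJ ISO libraries that correlated least, the log2 difference was 3.25 from C3H/HeJ and 2.60 from C57BL/6. The difference from C3H/HeJ was also called in the fit of all 18 libraries (adjusted p = 0.00498) and without KK/HlJ ISO day 14 replicate 2 (0.0154), KK/HlJ ISO day 21 replicate 1 (0.027) or KK/HlJ ISO day 21 replicate 2 (0.00751). Without the last of these the difference from C57BL/6 was called too (0.0399). C3H/HeJ and C57BL/6 overlapped, with a log2 difference of -0.65 (SE 0.662, 95% interval -2.04 to 0.74, edgeR adjusted p = 0.929). Their sham libraries did not overlap and gave 1.11.

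Cpe was highest in C57BL/6. In KK/HlJ it was at 51.2 and 77.3 CPM at ISO day 14, 80.7 and 92.1 CPM at ISO day 21, and 29.3 and 17.1 CPM in sham. In C3H/HeJ it was at 89.5 and 106.9 CPM at ISO day 14, 110.9 and 85.6 CPM at ISO day 21, and 37.9 and 74.9 CPM in sham. In C57BL/6 it was at 166.4 and 176.4 CPM at ISO day 14, 144.3 and 170.5 CPM at ISO day 21, and 181.9 and 132.4 CPM in sham. The lowest C57BL/6 library, at 132.4 CPM, was above the highest of the other strains, at 110.9 CPM in C3H/HeJ.

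The order of the group means was C57BL/6, then the ISO groups of C3H/HeJ, then the ISO groups of KK/HlJ, then C3H/HeJ sham and KK/HlJ sham. The 3 C57BL/6 groups overlapped one another, at 157.1 ± 35.0 to 171.4 ± 7.04 CPM (SD, n = 2 each). KK/HlJ sham was lowest, at 23.2 ± 8.60 CPM (SD, n = 2). The KK/HlJ and C3H/HeJ libraries differed by condition, with all 4 ISO libraries above both sham libraries in each of these strains. In C57BL/6 no ISO library lay outside the range of its 2 sham libraries.

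Under ISO, Cpe was lower in KK/HlJ than in C57BL/6, at 75.3 ± 17.3 and 164.4 ± 14.0 CPM (SD, n = 4 each). The log2 fold change was -1.16 (SE 0.232, 95% interval -1.64 to -0.67, edgeR adjusted p = 0.0473), a 2.23-fold difference. It was 1 of 30 genes called in this comparison, or 0.199% of those tested, and the one with the largest p among them. The call did not hold without the 2 KK/HlJ ISO libraries that correlated least (log2 -0.97, adjusted p = 0.20), or in the fit of all 18 libraries (log2 -1.14, adjusted p = 0.181). It was also lost when C57BL/6 ISO day 14 replicate 1 (adjusted p = 0.0611) or 2 (0.0664), C57BL/6 ISO day 21 replicate 2 (0.092), KK/HlJ ISO day 14 replicate 1 (0.059) or KK/HlJ ISO day 21 replicate 1 (0.0563) was left out. In C3H/HeJ, Cpe was at 98.2 ± 12.5 CPM (SD, n = 4), and its log2 difference from C57BL/6 of -0.74 did not pass (SE 0.230, 95% interval -1.23 to -0.26, edgeR adjusted p = 0.296). KK/HlJ and C3H/HeJ overlapped, with a difference of -0.41 (SE 0.229, 95% interval -0.89 to 0.07, edgeR adjusted p = 1.0).

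Hddc3 was lowest in C57BL/6. In KK/HlJ it was at 31.4 and 46.8 CPM at ISO day 14, 43.3 and 40.6 CPM at ISO day 21, and 77.7 and 34.1 CPM in sham. In C3H/HeJ it was at 42.9 and 45.1 CPM at ISO day 14, 52.3 and 34.5 CPM at ISO day 21, and 84.7 and 57.1 CPM in sham. In C57BL/6 it was at 18.5 and 20.4 CPM at ISO day 14, 10.5 and 15.9 CPM at ISO day 21, and 7.26 and 10.6 CPM in sham. The highest C57BL/6 library, at 20.4 CPM, was below the lowest of the other 12, at 31.4 CPM in KK/HlJ.

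The 6 groups of KK/HlJ and C3H/HeJ overlapped along their order, with C3H/HeJ sham first at 70.9 ± 19.5 CPM and KK/HlJ day 14 last at 39.1 ± 10.9 CPM (SD, n = 2 each). C57BL/6 followed with day 14 at 19.4 ± 1.40 CPM, day 21 at 13.2 ± 3.80 CPM and sham at 8.92 ± 2.35 CPM (SD, n = 2 each), where day 21 and sham overlapped.

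Under ISO, KK/HlJ had 40.5 ± 6.57 CPM of Hddc3, against 16.3 ± 4.3 CPM in C57BL/6 (SD, n = 4 each), a log2 difference of 1.32 (SE 0.326, 95% interval 0.64 to 2.01, edgeR adjusted p = 0.159). C3H/HeJ had 43.7 ± 7.32 CPM (SD, n = 4) and differed from C57BL/6 by 1.45 (SE 0.327, 95% interval 0.76 to 2.13, edgeR adjusted p = 0.081). Neither passed the test, and DESeq2 called both, with adjusted p = 0.0242 for KK/HlJ and 0.00832 for C3H/HeJ. Without the 2 KK/HlJ ISO libraries that correlated least, the log2 difference from C57BL/6 was 1.43 for KK/HlJ and 1.45 for C3H/HeJ. The C3H/HeJ difference was also called with no filter on low counts (adjusted p = 0.0301), and when C3H/HeJ ISO day 21 replicate 2 (0.0254) or any 1 KK/HlJ library (0.0049 to 0.024) was left out. The KK/HlJ difference was also called without KK/HlJ ISO day 14 replicate 1 (0.0205) or 2 (0.0408) or KK/HlJ ISO day 21 replicate 2 (0.0302). KK/HlJ and C3H/HeJ overlapped, at a difference of -0.12 (SE 0.320, 95% interval -0.80 to 0.55, edgeR adjusted p = 1.0).

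Man2a2, a mannosidase of the Golgi that shares exon bases with Hddc3 on the other strand, was more abundant. It ranged over 44.3 to 235.1 CPM in KK/HlJ, 102.6 to 269 CPM in C3H/HeJ and 68.9 to 157.7 CPM in C57BL/6, so the strains overlapped. Its log2 differences from C57BL/6 under ISO were 0.72 in KK/HlJ and 1.12 in C3H/HeJ (edgeR adjusted p = 0.441 for C3H/HeJ). The library with the lowest Man2a2, KK/HlJ ISO day 14 replicate 1 at 44.3 CPM, had 31.4 CPM of Hddc3. That was the lowest Hddc3 value of KK/HlJ and C3H/HeJ and lay above every C57BL/6 library. How far reads of Man2a2 moved the Hddc3 counts was not tested. The strand setting of the counting is not given in the sources used here, so reads of the 2 genes over the shared bases cannot be told apart.

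Maml2 was the exception, with no strain apart from both others. In KK/HlJ it was at 24.2 and 21.2 CPM at ISO day 14, 6.98 and 13.4 CPM at ISO day 21, and 51.1 and 36.5 CPM in sham. In C3H/HeJ it was at 14.5 and 18.9 CPM at ISO day 14, 17.0 and 22.1 CPM at ISO day 21, and 3.22 and 5.31 CPM in sham. In C57BL/6 it was at 39.2 and 21.3 CPM at ISO day 14, 33.7 and 14.7 CPM at ISO day 21, and 20.6 and 16.9 CPM in sham. The sham libraries of the 3 strains did not overlap, with KK/HlJ highest and C3H/HeJ lowest, whereas the ISO libraries of every pair of strains overlapped.

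Its group means ran between 43.8 ± 10.3 CPM in KK/HlJ sham and 4.27 ± 1.48 CPM in C3H/HeJ sham (SD, n = 2 each). Neighbours in that order overlapped, except that C3H/HeJ day 14 lay above KK/HlJ day 21, at 10.2 ± 4.54 CPM (SD, n = 2), which lay above C3H/HeJ sham. Every ISO library was below both sham libraries in KK/HlJ, and every ISO library was above both in C3H/HeJ. These directions use the sham values that chose the gene, so they are not tested.

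Under ISO, Maml2 averaged 16.4 ± 7.78 CPM in KK/HlJ, 18.1 ± 3.19 CPM in C3H/HeJ and 27.2 ± 11.2 CPM in C57BL/6 (SD, n = 4 each). The log2 difference of KK/HlJ from C57BL/6 was -0.85 (SE 0.435, 95% interval -1.76 to 0.07, edgeR adjusted p = 0.69), where the sham libraries gave 1.22. Over the alternative fits it ran from -1.103 to -0.473. That of C3H/HeJ from C57BL/6 was -0.58 (SE 0.433, 95% interval -1.49 to 0.33, edgeR adjusted p = 0.819), and the sham libraries gave -2.13. That of KK/HlJ from C3H/HeJ was -0.27 (SE 0.433, 95% interval -1.18 to 0.64, edgeR adjusted p = 1.0). The sham libraries gave 3.35 for this pair.

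Gimap6 was highest in C3H/HeJ. In KK/HlJ it was at 29.2 and 17.6 CPM at ISO day 14, 22.5 and 14.4 CPM at ISO day 21, and 13.1 and 11.6 CPM in sham. In C3H/HeJ it was at 56.4 and 48.0 CPM at ISO day 14, 113.4 and 80.4 CPM at ISO day 21, and 77.7 and 67.3 CPM in sham. In C57BL/6 it was at 14.3 and 26.4 CPM at ISO day 14, 7.32 and 13.6 CPM at ISO day 21, and 40.9 and 27.3 CPM in sham. The lowest C3H/HeJ library, at 48.0 CPM, was above the highest of the other 12, at 40.9 CPM in C57BL/6 sham.

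The 3 C3H/HeJ groups did not overlap one another, with day 21 at 96.9 ± 23.3 CPM, sham at 72.5 ± 7.39 CPM and day 14 at 52.2 ± 5.98 CPM (SD, n = 2 each). C57BL/6 sham came next at 34.1 ± 9.56 CPM, and the remaining groups reached down to C57BL/6 day 21 at 10.5 ± 4.43 CPM (SD, n = 2 each). Each of these 6 lower groups overlapped the next in the order, except that KK/HlJ day 21 lay above KK/HlJ sham. Groups further apart in the order could be separate, as C57BL/6 sham was from C57BL/6 day 14.

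Under ISO, C3H/HeJ had 74.6 ± 29.4 CPM of Gimap6, against 15.4 ± 7.98 CPM in C57BL/6 (SD, n = 4 each). Its level under ISO was 4.87-fold higher in C3H/HeJ than in C57BL/6 (log2 2.28, SE 0.360, 95% interval 1.53 to 3.04, edgeR adjusted p = 0.00447). It was 1 of 51 genes called in that comparison, 0.339% of those tested, and the call held in all 18 alternatives, with adjusted p between 2.246e-09 and 0.0163. KK/HlJ, at 20.9 ± 6.46 CPM (SD, n = 4), was 3.47-fold lower than C3H/HeJ (log2 -1.80, SE 0.354, 95% interval -2.54 to -1.05, edgeR adjusted p = 0.0307), where 42 genes or 0.279% were called. Leaving out C3H/HeJ ISO day 21 replicate 1 (log2 -1.66) or taking the replicate number as a block ended that call. Without the 2 KK/HlJ ISO libraries that correlated least the difference was -2.17. KK/HlJ and C57BL/6 overlapped, at 0.49 (SE 0.347, 95% interval -0.24 to 1.22, edgeR adjusted p = 0.806), where the sham libraries did not overlap and gave -1.46.

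Markers of the cells in which GIMAP genes are best known were set beside these values. The 12 endothelial markers summed to 1555 CPM in replicate 1 of C3H/HeJ ISO day 21, where Gimap6 was highest, and to 242.2 to 721.2 CPM in the other 17. The 12 markers of macrophages and monocytes were highest there too, at 218.4 CPM, against 3.95 to 116.3 CPM in the others. Both C3H/HeJ day 14 libraries had endothelial sums of 242.2 and 251.7 CPM, at the low end of all libraries, with 56.4 and 48.0 CPM of Gimap6. The sum is a rough measure of endothelial cells. Tek had the highest median of the 12 markers, at 206.5 CPM, and Cdh5, Kdr, Flt1, Emcn and Cldn5 had medians of 2.861 to 14.64 CPM. The 12 T and B lymphocyte markers summed to 0 to 7.32 CPM. Of its T cell markers, Cd3d, Cd3g, Cd8a and Il7r had no read in any library. Cd4, Lck, Cd2 and Cd3e reached 5.717, 3.587, 2.505 and 1.096 CPM. Epicardial and mesothelial sums had Pearson's r of -0.585 with Gimap6 and -0.572 with Hddc3 over 18 libraries. Under ISO they ran over 305.9 to 396.6 CPM in C3H/HeJ, 485.4 to 697.9 CPM in C57BL/6 and 357.0 to 655.3 CPM in KK/HlJ. Whether the mix of cells moved either gene was not tested.

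**Figure D2:**
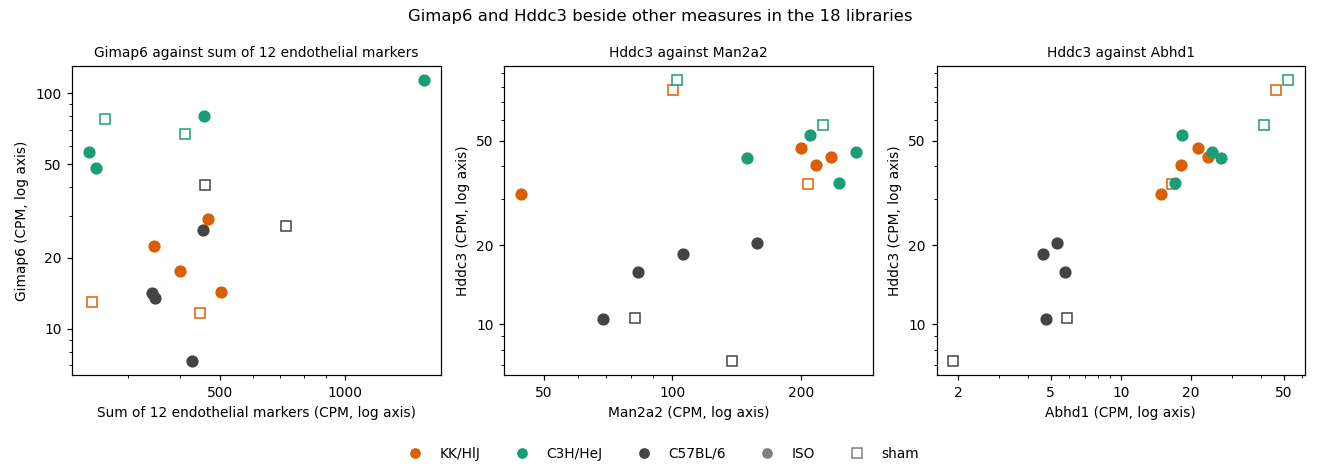
CPM on log axes in the 18 libraries: Gimap6 against the sum of 12 endothelial markers (left), Hddc3 against Man2a2 (centre) and Hddc3 against Abhd1 (right), with filled circles for ISO and open squares for sham. The C3H/HeJ libraries lie above the rest in Gimap6, with endothelial sums of 242.2 to 1555 CPM. The C57BL/6 libraries lie lowest in Hddc3 in both of its plots. Whether the content of endothelial cells moved Gimap6 was not tested.

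Across the 5 genes and 3 pairs of strains, edgeR called 3 of 15 differences under ISO, and 8 had an unadjusted p under 0.05. DESeq2 called 7 of the 15. By pair, edgeR called 1 of the 5 genes in each of KK/HlJ minus C57BL/6, C3H/HeJ minus C57BL/6 and KK/HlJ minus C3H/HeJ, against 0.199%, 0.339% and 0.279% of all genes. In the same order of pairs, 3, 3 and 2 of the 5 had an unadjusted p under 0.05, against 7.33%, 8.12% and 3.52% of all genes. DESeq2 called 3, 2 and 2 of the 5, against 1.11%, 1.61% and 0.758% of the genes to which it gave an adjusted p. In the separation of single pairs over the ISO libraries, 3 of the 5 genes did not overlap between KK/HlJ and C57BL/6 (4.87% of all genes), 3 between C3H/HeJ and C57BL/6 (6.52%) and 2 between KK/HlJ and C3H/HeJ (3.73%). Over all 6 libraries a strain the counts were 3, 3 and 2, against 0.749%, 2.06% and 0.926%. In the sham libraries alone 5, 5 and 4 did not overlap, against 33.4%, 39.3% and 25.6% of all genes. The sham libraries chose the genes and are part of both of these last sets of counts, so nothing is read from them.

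**Figure D3:**
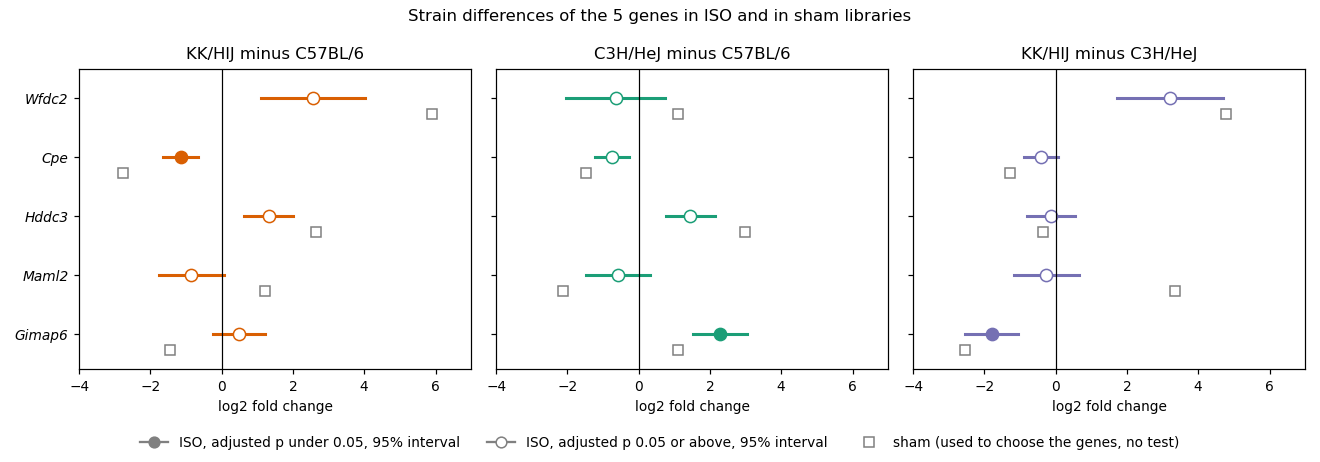
Log2 fold changes between strains of the 5 genes. Circles with 95% intervals are ISO libraries (filled where edgeR's adjusted p was under 0.05), and open squares are sham libraries, which chose the genes and have no test. The ISO differences of Wfdc2, Cpe and Hddc3 from C57BL/6 in KK/HlJ, at 2.57, -1.16 and 1.32, have the sign of the sham ones, and those of Maml2, at -0.85, and Gimap6, at 0.49, do not.

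The strain differences were also compared between the 2 ISO days. The change of a strain difference at day 21 relative to day 14 was called by edgeR for 0 of 15 gene and strain pairs, and by DESeq2 for 0 of the 7 to which it gave an adjusted p, with 1 unadjusted p under 0.05 of 15 by each tool. edgeR called 0 of all 15050 genes in each pair. Unadjusted p-values under 0.05 numbered 780, or 5.18%, for KK/HlJ minus C57BL/6, 701, or 4.66%, for C3H/HeJ minus C57BL/6 and 136, or 0.904%, for KK/HlJ minus C3H/HeJ. DESeq2 called 19, 5 and 3 genes, or 0.68%, 0.2% and 0.0199% of those with an adjusted p. For Gimap6 in C3H/HeJ against C57BL/6 the log2 difference was 3.19 at day 21 and 1.38 at day 14 (difference 1.82, SE 0.694, 95% interval 0.36 to 3.28, edgeR adjusted p = 1.0). For Wfdc2 in KK/HlJ against C57BL/6 it was 1.53 at day 21 and 3.61 at day 14 (difference -2.08, SE 1.32, 95% interval -4.85 to 0.70, edgeR adjusted p = 0.914).

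Genes linked to the 5 by pathway or family were looked up in 6 lists, and edgeR called 1 of them between strains under ISO. A gene not called may still differ, as some fitted differences were large with wide errors. Jag2, a Notch ligand at a mean of 2.59 CPM, had a log2 difference of 6.81 (SE 2.09) in C3H/HeJ minus C57BL/6. In KK/HlJ minus C57BL/6 it was 7.02 (SE 2.1), and in KK/HlJ minus C3H/HeJ 0.216 (SE 1.53). Of 35 tested genes of the Notch pathway, in which Maml2 acts, edgeR called 0 in any pair. The counts at an unadjusted p under 0.05 were 3 for KK/HlJ minus C57BL/6, 6 for C3H/HeJ minus C57BL/6 and 0 for KK/HlJ minus C3H/HeJ, against 7.33%, 8.12% and 3.52% of all genes. DESeq2 called 1 of 34, 2 of 34 and 0 of 35, against 1.11%, 1.61% and 0.758% of all genes to which it gave an adjusted p. The median log2 differences of the list were 0.08, 0.18 and -0.14, beside medians over all genes of -0.02, 0.03 and -0.07. The number of Notch genes called by edgeR moved when some single libraries were left out, as did the number called over all genes. Maml1, a second mastermind-like coactivator, was at 0 to 36.0 CPM in KK/HlJ, 4.48 to 41.9 CPM in C3H/HeJ and 17.0 to 37.1 CPM in C57BL/6.

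In the WAP four-disulfide core list of Wfdc2, 5 of 21 genes were tested. edgeR called 1, in C3H/HeJ minus C57BL/6, against 0.339% of all genes. Wfikkn2, a secreted antagonist of growth and differentiation factors, was higher in C3H/HeJ than in C57BL/6 under ISO, at 24.4 to 61.95 CPM, against 4.46 to 13.8 CPM in C57BL/6 (log2 2.28, SE 0.468, edgeR adjusted p = 0.0427). That call was lost in the fit of all 18 libraries (adjusted p = 0.050) and without C57BL/6 ISO day 14 replicate 1 (0.0948), C57BL/6 ISO day 21 replicate 1 (0.0732) or C3H/HeJ ISO day 14 replicate 2 (0.106). Wfdc2 in those C3H/HeJ libraries was at 2.10 to 3.16 CPM.

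The lists linked to Cpe and Hddc3 held no call by edgeR in any pair. They comprised 7 tested metallocarboxypeptidases, 15 genes of prohormone processing and granins, and 19 genes of NADPH and ppGpp-related metabolism. Unadjusted p-values under 0.05 numbered 1, 2 and 2 in the first list, 3, 2 and 1 in the second and 2, 1 and 0 in the third, for KK/HlJ minus C57BL/6 (7.33% of all genes), C3H/HeJ minus C57BL/6 (8.12%) and KK/HlJ minus C3H/HeJ (3.52%). DESeq2 called 1 of these genes, a metallocarboxypeptidase, in C3H/HeJ minus C57BL/6, against 1.61% of all genes with an adjusted p.

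Of 7 further genes of the GIMAP family, 2 passed the filter, and edgeR called 0. There was 1 unadjusted p under 0.05 and 1 DESeq2 call, both in C3H/HeJ minus C57BL/6. The shares over all genes there were 8.12% and 1.61%. Gimap4, which lies 9521 bases from Gimap6, was at 0 to 6.78 CPM in KK/HlJ, 0.692 to 27.0 CPM in C3H/HeJ and 0 to 4.17 CPM in C57BL/6. Its log2 difference under ISO was 5.56 in C3H/HeJ against C57BL/6 (edgeR adjusted p = 0.397), a fitted value over libraries near 0. DESeq2 called this difference (log2 5.26, adjusted p = 0.026). The C3H/HeJ libraries overlapped those of both other strains in Gimap4, where in Gimap6 they did not.

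The 5 nearest tested genes on each side of every member were compared in the same way. Of these 50 neighbours edgeR called 1 in C3H/HeJ minus C57BL/6 and 0 in each other pair, against 0.339%, 0.199% and 0.279% of all genes in C3H/HeJ minus C57BL/6, KK/HlJ minus C57BL/6 and KK/HlJ minus C3H/HeJ. Unadjusted p-values under 0.05 numbered 9, 4 and 2 in that order of pairs, against 8.12%, 7.33% and 3.52% of all genes. Matn4, a matrilin of the extracellular matrix that lies 157252 bases from Wfdc2, was higher in C3H/HeJ than in C57BL/6 under ISO, at 27.2 to 68.2 CPM, against 6.00 to 13.02 CPM in C57BL/6 (log2 2.28, SE 0.433, edgeR adjusted p = 0.0226). Leaving out C3H/HeJ ISO day 21 replicate 1 (log2 1.88) ended the call, as did taking the replicate number as a block (log2 2.19, edgeR adjusted p = 0.0584). The log2 difference of Matn4 was 1.24 in KK/HlJ minus C57BL/6 and -1.04 in KK/HlJ minus C3H/HeJ, where that of Wfdc2 was 2.57 and 3.21. DESeq2 called 4 of the 45 neighbours with an adjusted p in C3H/HeJ minus C57BL/6, against 1.61% of all genes with one. They were Matn4, Pigt, Trpc6 and Gimap4. It called 0 of 45 in KK/HlJ minus C57BL/6 (1.11% of all genes) and 0 of 46 in KK/HlJ minus C3H/HeJ (0.758%). Pigt, a subunit of the GPI transamidase that lies near Wfdc2, differed by 1.10 by DESeq2 (adjusted p = 0.029).

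**Figure D4:**
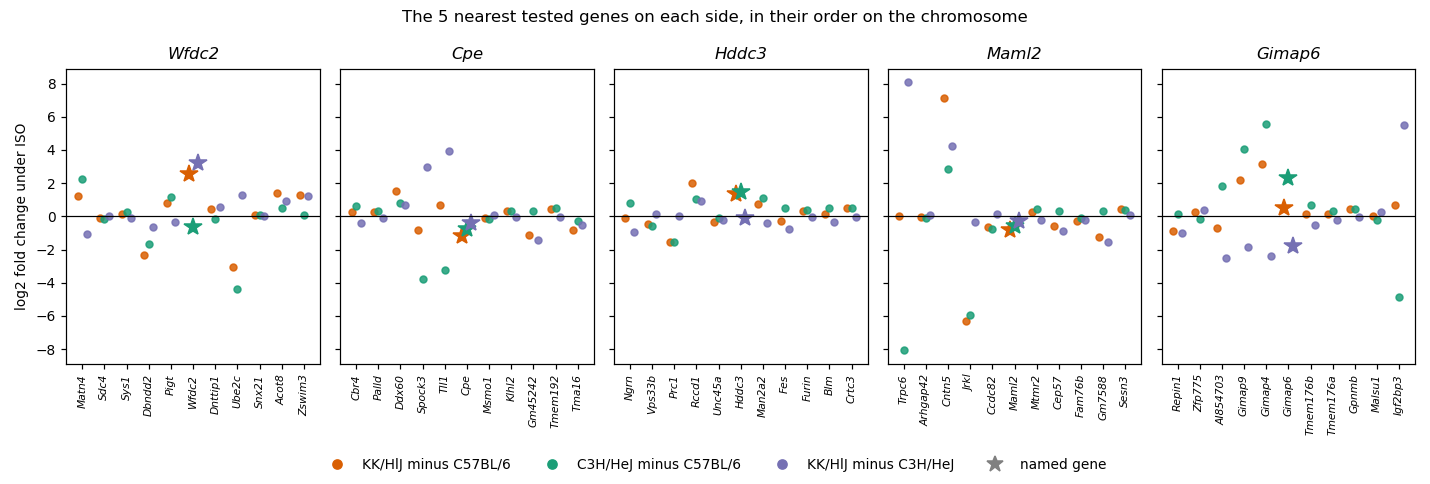
Log2 fold changes between strains under ISO for the 5 nearest tested genes on each side of every named gene, in chromosomal order, with stars for the named genes. The neighbours of Wfdc2 run from -3.05 to 1.39 in KK/HlJ minus C57BL/6, where Wfdc2 is at 2.57, and from -1.04 to 1.31 in KK/HlJ minus C3H/HeJ, where it is at 3.21. The most extreme points, such as Trpc6, belong to genes at a mean of under 5 CPM.

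For each gene, the 3 genes with the most similar profile were taken, by Pearson's r of log2 CPM over the 18 libraries among 9786 genes at a mean of 5 CPM or more. The libraries share strain and condition, so r describes likeness and carries no test. For Wfdc2 they were Ak1, a cytosolic adenylate kinase (r = 0.845), Ercc1, a subunit of a DNA repair nuclease (0.830), and Ip6k3, an inositol hexakisphosphate kinase (0.819). Ip6k3 was at 16.3 to 55.3 CPM in KK/HlJ, 0.547 to 5.17 CPM in C3H/HeJ and 1.38 to 11.6 CPM in C57BL/6. Ak1 was at 205.1 to 265.7 CPM in KK/HlJ, 103.5 to 156.1 CPM in C3H/HeJ and 87.6 to 157.4 CPM in C57BL/6. Both separated KK/HlJ from the other strains in every library. Ercc1 did not, at 69.4 to 180.5 CPM in KK/HlJ and 44.1 to 110.2 CPM in C3H/HeJ. The genes named here and below were picked by likeness over the same libraries. Where they separate a strain, this follows in part from that choice.

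For Cpe the 3 were Gbp2, an interferon-induced GTPase (r = 0.845), the histone gene Hist1h2bc (0.837), which has near-identical copies and is uncertain, and Mrs2, a magnesium channel of mitochondria (0.828). Gbp2 was at 44.8 to 98.0 CPM in KK/HlJ, 62.3 to 97.9 CPM in C3H/HeJ and 108.2 to 139.2 CPM in C57BL/6, so it separated C57BL/6 in every library. Hist1h2bc and Mrs2 overlapped between C57BL/6 and C3H/HeJ. For Maml2 they were Son, a splicing cofactor (r = 0.863), Spats2 (0.847) and Bicc1, an RNA-binding protein (0.835). Bicc1 was at 452.5 and 859.9 CPM in KK/HlJ sham, 143.3 and 191.8 CPM in C3H/HeJ sham and 261.2 and 393.9 CPM in C57BL/6 sham. Under ISO it overlapped between the strains, as Maml2 did.

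For Hddc3 the 3 were Abhd1 (r = 0.962), the acute-phase gene Saa3 (0.869) and Steap3, a ferrireductase (0.869). Abhd1, on chromosome 5 and annotated as a processed transcript, was at 14.8 to 46.2 CPM in KK/HlJ, 17.1 to 52.4 CPM in C3H/HeJ and 1.91 to 5.85 CPM in C57BL/6. Steap3 was at 659.5 to 1034 CPM in KK/HlJ, 758.2 to 1124 CPM in C3H/HeJ and 193.5 to 434.1 CPM in C57BL/6. Within strains, r between Hddc3 and Abhd1 over 6 libraries was 0.982 in KK/HlJ, 0.834 in C3H/HeJ and 0.674 in C57BL/6. In the same order of strains it was 0.222, -0.282 and 0.911 for Saa3 and -0.305, 0.562 and 0.503 for Steap3.

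For Gimap6 the 3 were C1rb, a copy of the complement gene C1r (r = 0.878), Pianp (0.843) and Ripor1 (0.842). C1rb was at 0 to 0.13 CPM in KK/HlJ, 20.2 to 41.5 CPM in C3H/HeJ and 0 to 0.321 CPM in C57BL/6, and is uncertain because reads of its near-identical copy may be split between the 2. Pianp was at 0 to 6.76 CPM in KK/HlJ, 105.5 to 187.7 CPM in C3H/HeJ and 0.188 to 9.44 CPM in C57BL/6. C1rb, Pianp and Gimap6 all lie on chromosome 6, while Ripor1 lies on chromosome 8. C1rb starts at 124570294 and Pianp at 124996694, far from Gimap6 at 48701582 to 48708225. Among the genes most alike to the other members, Ak1 shares chromosome 2 with Wfdc2 and Saa3 shares chromosome 7 with Hddc3. Reads of all strains were mapped to the mm10 genome of C57BL/6, and how far strain variants moved these counts was not tested.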

How the data were processed

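RNA of Thy1+ heart cells was sequenced as single-end reads of 50 nt. Per the submitters' processing notes, FastQC, STAR 2.5.3a, edgeR and the mm10 genome were used. The annotation, counter and strand setting are not stated in the sources used here. The files hold whole-number counts per Ensembl gene, deposited without normalization. Of 53342 identifiers, 53237 matched the GENCODE M21 annotation. The 105 others held 0.00159% of reads.

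The 5 genes, the gene lists and the tests were chosen with earlier results of these data known. Strain differences were tested with edgeR's robust quasi-likelihood fit (edgeR 4.0.16, R 4.3.3, TMM scaling) on the 12 ISO libraries, which the choice of genes did not use. The fit had 6 groups of strain and day, leaving 6 residual degrees of freedom, and default filtering left 15050 genes. Contrasts were the mean over days of each strain difference and its change between days, with calls at Benjamini-Hochberg adjusted p-values under 0.05. Each SE came from the edgeR F statistic. A fit of all 18 libraries (15762 genes) gave the CPM and the sham and ISO-minus-sham values, which are descriptions. The test was checked on simulated data.

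Within every group the 2 libraries differed beyond counting noise (chi-square per degree of freedom 63.7 to 167.4), so none was counted as a repeat of another. Alternatives were DESeq2 1.42.0 (genes it gave no adjusted p stay out of its shares), the replicate number as a block, RLE scaling, all genes with a read, all 18 libraries, leaving out the 2 KK/HlJ ISO libraries that correlated least, and leaving out each ISO library. Named genes are the 5, members of the lists and neighbours called in any pair (up to 4 each), and the 3 most alike in profile. Maml1, Jag2, Gimap4, Man2a2, Pigt and Trpc6 were named after their values were seen.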

Additional observations from a re-analysis of the deposited data

Results flagged for a closer look

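In 3 cases the ISO libraries of a gene lay on opposite sides of the sham libraries in 2 strains. The values are differences, between the strains, of the ISO-minus-sham log2 change averaged over both days. Maml2 had a difference of -3.607 in KK/HlJ minus C3H/HeJ: all 4 ISO libraries were below both sham libraries in KK/HlJ, and all 4 were above both in C3H/HeJ. Gimap6 had a difference of 1.974 in KK/HlJ minus C57BL/6, with all 4 ISO libraries above both sham libraries in KK/HlJ and all 4 below both in C57BL/6. Wfdc2 had a difference of -1.761 in C3H/HeJ minus C57BL/6, with all 4 ISO libraries below both sham libraries in C3H/HeJ and all 4 above both in C57BL/6. These differences were not tested, since the sham libraries chose the genes.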

How the results depend on the processing

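Of the 3 member calls, that of Gimap6 in C3H/HeJ minus C57BL/6 held in all 18 alternatives, and no call changed sign. Counts of genes called moved. Fits that leave out libraries have 1 library in at least 1 group, so their counts rest on a changed estimate of the spread. For KK/HlJ minus C57BL/6, C3H/HeJ minus C57BL/6 and KK/HlJ minus C3H/HeJ, the counts of 30, 51 and 42 became 145, 214 and 103 with DESeq2, 131, 162 and 83 without a filter on low counts, and 120, 425 and 103 without the 2 KK/HlJ ISO libraries that correlated least. Leaving out 1 library gave 31 to 907, 48 to 255 and 52 to 748 genes. For C3H/HeJ minus C57BL/6 and KK/HlJ minus C3H/HeJ, leaving out any KK/HlJ or C3H/HeJ library moved the count by over 1.5 times. For KK/HlJ minus C57BL/6 so did those and C57BL/6 ISO day 14 and day 21 replicate 2. The counts of 0 for a change between days became 19, 5 and 3 with DESeq2, 28, 8 and 6 without a filter, 15, 66 and 7 without those 2 KK/HlJ libraries, and 0 to 910, 0 to 27 and 0 to 526 with 1 library left out. Counts over the gene lists and neighbours moved by over 1.5 times in 91 of 594 values, with none above 5. The 8, 16 and 24 sham calls became 59, 59 and 103 without a filter. Differences near 0 turned their sign. With 1 library left out, Hddc3 in KK/HlJ minus C3H/HeJ ran from -0.268 to 0.038, above 0 when C3H/HeJ ISO day 21 replicate 1 was left out, or KK/HlJ ISO day 14 replicate 1 (0.021). The between-day change of Cpe in C3H/HeJ minus C57BL/6 ran from -0.099 to 0.297, with -0.011 as the other negative value, both with a C3H/HeJ replicate 1 left out. That of Hddc3 in KK/HlJ minus C3H/HeJ ran from -0.15 to 0.462, with -0.138 as the other negative value, and was -0.163 without those 2 KK/HlJ libraries. The cause was not tested.

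Deviations of same-numbered libraries correlated at -0.1 to 0.167 over 15 pairs of groups (median -0.026), with 4 pairs over 0.1. Whether replicate numbers pair the libraries was not tested. With the replicate number as a block, 26, 37 and 33 genes were called, Gimap6 kept its call in C3H/HeJ minus C57BL/6 (adjusted p = 0.0163), and the calls of Cpe (0.0623), Gimap6 in KK/HlJ minus C3H/HeJ (0.0666), Wfikkn2 (0.0889) and Matn4 (0.0584) were lost.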
